A study of Mus musculus with 4 samples.

Results

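Annexins are calcium-dependent proteins that bind the inner face of cell membranes, and several of them are held in pairs or tetramers by small calcium-sensor proteins of the S100 family. The best known complex joins Anxa2 to S100a10 and sits under the plasma membrane, where it links membranes to actin and binds tissue plasminogen activator and plasminogen at the cell surface. S100a11 is a partner of Anxa1 and S100a6 binds several annexins. In the developing brain these genes are known from meninges, vessels, microglia and glial cells more than from neurons.

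The values below cover 10 genes, of 36488 gene rows in all: Anxa1, Anxa2, Anxa4, Anxa5, Anxa6, Anxa7, S100a6, S100a10, S100a11 and S100a13. They were chosen by symbol, with earlier results of these data known. The genes were read in single cortical cells of C57BL/6 mouse embryos at E16.5, from 2 libraries labelled COP1 KO (CKO in their titles) and 2 labelled HET, each from 1 mouse. The labels name no Cre driver and do not say what HET stands for. COP1 recruits substrates to a ubiquitin ligase, and its known targets include c-JUN, a subunit of the transcription factor AP-1, and several ETS factors. A droplet method that counts the 3′ ends of transcripts gave 28049007 and 28988265 counts for the COP1 KO libraries and 28327090 and 28071382 counts for the HET libraries, and 18782 cells were kept.

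Counts of same-genotype libraries differed beyond counting noise (chi-square per degree of freedom 18.7 for the COP1 KO pair and 10.6 for the HET pair), against 10.1 to 24.1 between genotypes, so COP1 KO replicate 2 was closer to both HET libraries (12.9 and 10.1) than to COP1 KO replicate 1, and no library was a copy of another. COP1 KO replicate 1 stood apart, since 341 of 7518 genes in it lay more than 0.5 (log2) away from the average of the remaining 3, against 66 to 116 genes for the rest. The 4 libraries shared 172 barcode sequences. The targeted gene, listed as Rfwd2, had 30.6 and 29.7 CPM (counts scaled to the same total in each sum) in the COP1 KO libraries, against 32.0 and 39.2 CPM in the HET libraries. The reads are 3′ tags and the labels do not give the deleted part, so this neither checks nor contradicts the genotype labels. With 2 libraries in each genotype, the smallest two-sided p of an exact permutation test is 0.33, so every p-value rests on spread that edgeR pools over genes. Whether the libraries of a genotype came from separate litters is not stated.

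Upstream sequence was available for 8 of the 10 genes from RefSeq (GRCm38.p6), as the 250 bases before the annotated start. S100a10 and Anxa6 had no entry. Each window was searched on both strands for TGANTCA, the core that AP-1 binds, and for CCGGAA, an ETS core. The windows of Anxa2 and S100a11, shown because these genes changed most in radial-glia-like cells, hold TGANTCA in capitals.

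Anxa2 (chr9:69453433-69453682, plus strand): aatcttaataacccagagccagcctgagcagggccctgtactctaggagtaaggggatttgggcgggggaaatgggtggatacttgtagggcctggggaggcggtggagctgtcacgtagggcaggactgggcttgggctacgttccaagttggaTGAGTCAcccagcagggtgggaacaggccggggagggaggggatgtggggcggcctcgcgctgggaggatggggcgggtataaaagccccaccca
S100a11 (chr3:93520246-93520495, plus strand): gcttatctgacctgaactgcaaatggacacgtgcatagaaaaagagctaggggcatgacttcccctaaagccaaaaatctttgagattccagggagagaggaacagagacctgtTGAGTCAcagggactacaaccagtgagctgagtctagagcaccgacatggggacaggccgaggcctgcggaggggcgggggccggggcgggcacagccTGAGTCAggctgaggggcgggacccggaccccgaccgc

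The match starts 95 bases before the Anxa2 start, and 136 and 38 bases before the S100a11 start. The other 6 genes with a window held no TGANTCA, and 6.75% of 32851 RefSeq windows of this length hold at least 1. CCGGAA was found upstream of Anxa1 only, and 12% of all windows hold it. The 2 cores share no base in these windows, and a match of letters does not show that a factor binds there.

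Per count of a class, each of the 10 genes had its highest mean level in a class outside the neural lineage. Cells were grouped by marker genes without using any annexin or S100 gene, and a group is called by its markers with "-like" added. Fibroblast-like cells (92 cells, Col1a1 and Dcn positive) had the highest mean level of 7 of the 10 genes: Anxa1, Anxa2, Anxa5, Anxa7, S100a6, S100a10 and S100a11. The exceptions were Anxa4, which was highest in microglia-like cells, Anxa6 in mural-like cells and S100a13 in endothelial-like cells.

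Anxa2 averaged 1235 CPM in fibroblast-like cells, 615 CPM in endothelial-like cells, 526 CPM in mural-like cells, 154 CPM in microglia-like cells and 123 CPM in radial-glia-like cells, as means of the 4 libraries. The order of the last pair differed by genotype: microglia-like cells had 102 and 122 CPM in COP1 KO, below the radial-glia-like cells of the same libraries, against 206 and 186 CPM in HET, above them. Excitatory-neuron-like cells held between 0.728 and 2.51 CPM of it, and no molecule was counted in 249 Cajal-Retzius-like or 27 erythroid-like cells. The fibroblast-like range did not overlap that of the endothelial-like cells, the next in the order. S100a11, the annexin-1 partner, averaged 1002 CPM in fibroblast-like and 792 CPM in mural-like cells, whose ranges overlapped, then 243 CPM in endothelial-like cells and 47.9 CPM in radial-glia-like cells. Fibroblast-like, endothelial-like, mural-like, microglia-like and erythroid-like cells made up 1.85% and 1.78% of COP1 KO cells, against 1.52% and 1.41% of HET cells. They held 47.5% and 46.0% of all Anxa2 molecules in COP1 KO, against 70.0% and 77.1% in HET, and 52.8% and 51.8% of S100a11 in COP1 KO, against 76.1% and 72.1% in HET. Both COP1 KO shares of each gene lay below both HET shares. Of Anxa7 and Anxa4 they held less, on average 14.7% and 27.3% over the 4 libraries, against 84.8% of Anxa1. Excitatory-neuron-like cells held 51.1% and 49.4% of Anxa7 molecules in COP1 KO, against 52.6% and 53.0% in HET. They made up 43.7% and 41.9% of COP1 KO cells, against 45.0% and 42.7% of HET cells. Of all kept counts they held 12642413 of 26518014 and 13158011 of 27875077 in COP1 KO, against 13734434 of 27242223 and 12866011 of 26806767 in HET.

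S100a10, the partner of Anxa2, followed another pattern. It averaged 1487 CPM in fibroblast-like cells, but the next in the order was a cluster of 1489 cells led by Hs3st4, Nxph3 and Tle4, at 113 CPM. Its markers scored highest for excitatory neurons (0.93, against 0.37 for the next class). It was set apart because its leading genes held 1 marker of another class and 0 of the excitatory neuron list. Oligodendrocyte-precursor-like cells followed at 97.5 CPM and excitatory-neuron-like cells at 84.2 CPM. The ranges of these last groups overlapped. Excitatory-neuron-like cells held 53.5% and 54.1% of all S100a10 molecules in the COP1 KO libraries, against 58.0% and 55.1% in the HET libraries, to be read beside their large share of all cells and counts given above. In the same cells Anxa2 lay under 3 CPM, so most S100a10 molecules were counted in cells with hardly any Anxa2.

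**Figure D1:**
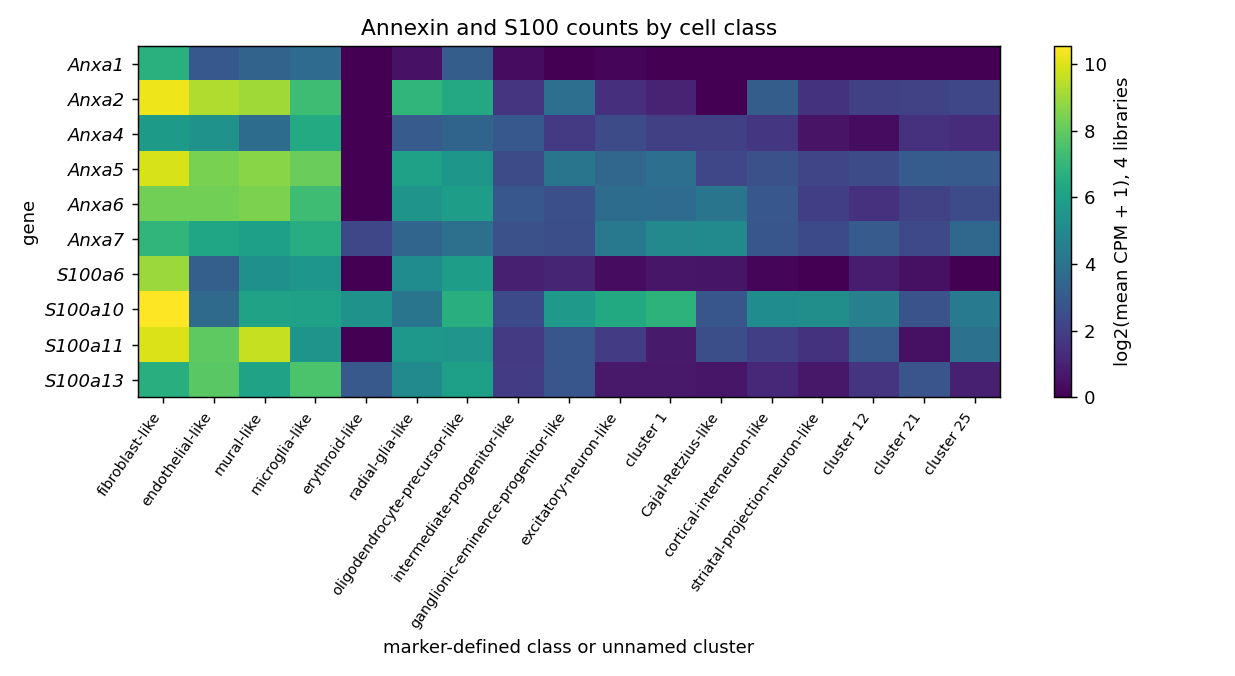
Mean level of each gene (rows) in each class or cluster without a class name (columns), as log2 of CPM plus 1 over the 4 libraries, to be compared along a row. Most rows are brightest in the fibroblast-like, endothelial-like, mural-like and microglia-like columns on the left, while S100a10 is also bright in excitatory-neuron-like cells and cluster 1.

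The patterns of the annexins over the 13 named classes were alike to differing degrees. Pearson's r of log2(CPM + 1) between annexins ran from 0.72 (Anxa2 and Anxa7) to 0.97 (Anxa2 and Anxa5). It was 0.95 between Anxa2 and S100a11, and 0.33 between S100a10 and Anxa4, the lowest of all pairs. These correlations are across classes of the same 4 libraries, some with few cells, and are given as a description. Among 11716 genes with at least 20 CPM in some class, the genes most like Anxa2 were Bag3 (r = 0.97), Anxa5 and a row listed only as 102642806. Anxa5, the phosphatidylserine binder used to stain dying cells, was most like Klf4, Acaa2 and P4hb (r from 0.97 to 0.99). S100a11 was most like Loxl3, Oaf and Crtap (r from 0.97 to 0.98), and S100a6 most like Cp, Efemp2 and Rab29 (r from 0.95 to 0.98).

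The closest genes to the remaining members were Sult1a1, Colec12 and Serpinf1 for Anxa1 and Glmp, B2m and Ostf1 for Anxa4. They were Epb41l2, P4hb and Csrnp1 for Anxa6, Tmem189, Txndc17 and Nucb1 for Anxa7, and Zyx, Plod1 and Gng12 for S100a13, all with r from 0.94 to 0.98. S100a10 had no gene as close: its best matches were Gm4184 (r = 0.83), Fbn1 and Lum.

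Anxa7, which promotes membrane fusion in secretion, had 122 CPM in fibroblast-like cells (range over the libraries 106 to 147) and 95.1 CPM in microglia-like cells, whose ranges overlapped. Endothelial-like cells had 72.8 CPM of it, mural-like cells 61.4 CPM, Cajal-Retzius-like cells 31.3 CPM and excitatory-neuron-like cells 17.9 CPM. S100a6, also called calcyclin, had 497 CPM in fibroblast-like cells, and its next class by mean, oligodendrocyte-precursor-like cells, had 57.5 CPM with no overlap of the ranges. That mean spans 20.1 to 99.4 CPM over the libraries. In COP1 KO these precursor-like cells lay below the radial-glia-like cells of the same libraries, and in HET above them. S100a13, which takes part in the release of the growth factor FGF1, had 228 CPM in endothelial-like and 186 CPM in microglia-like cells, whose ranges overlapped, and 0.646 CPM in excitatory-neuron-like cells. Anxa6 had overlapping ranges in mural-like (349 CPM), fibroblast-like (316 CPM) and endothelial-like cells (312 CPM). Anxa4 had 84.8 CPM in microglia-like cells and 52.2 CPM in fibroblast-like cells, again with overlapping ranges.

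In radial-glia-like cells, the neural stem and progenitor cells of the ventricular zone, 3 of the 10 genes rose in COP1 KO: Anxa2, S100a11 and S100a10. The class held 387 and 336 cells of the COP1 KO libraries, against 284 and 299 of the HET libraries, and all 15 radial glia markers were detected in each of its 3 clusters. Counts were summed per library and tested with edgeR over all 11618 genes that passed its filter, with adjusted p under 0.05 as the threshold. Of the 10 genes 9 passed the filter. Across all genes tested, 3.14% passed the threshold in either direction and 2.19% were higher in COP1 KO. The median log2 difference of the 9 genes was 0.31, against a median near 0 over all genes tested (−0.0014). Both COP1 KO libraries lay above both HET libraries in 5 of the 9, against 18.1% of all genes tested.

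Anxa2 had 194 and 181 CPM in the COP1 KO libraries, against 66.8 and 51.3 CPM in the HET libraries. The groups lay far apart, with log2 1.72 (SE 0.13, edgeR adjusted p = 9.44e-05). S100a11 had 86.2 and 65.1 CPM in COP1 KO, against 9.18 and 31.3 CPM in HET, with log2 1.90 (SE 0.358, edgeR adjusted p = 0.0172). Its HET libraries differed from each other more than 3-fold, yet both lay under both COP1 KO libraries. S100a10 had 23.6 and 21.8 CPM in COP1 KO, against 9.69 and 10.0 CPM in HET, which is 53 and 52 molecules against 19 and 23, with log2 1.25 (SE 0.247, edgeR adjusted p = 0.0214). S100a11 and S100a10 are neighbours on chromosome 3 of GRCm38.p6, with 28.829 kb between them. Reads of overlapping or antisense genes could not be told apart.

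The call for Anxa2 held under all 16 alternatives tried, with adjusted p of at most 0.0124. S100a11 passed under 12 of 16 and S100a10 under 8 of 15. Both missed the threshold with DESeq2 (adjusted p = 0.483 for S100a11 and 0.252 for S100a10) and without HET replicate 1 (edgeR adjusted p = 0.09 and 0.211). Without HET replicate 2 S100a10 also missed it (edgeR adjusted p = 0.217), while S100a11 passed with log2 3.08.

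**Figure D2:**
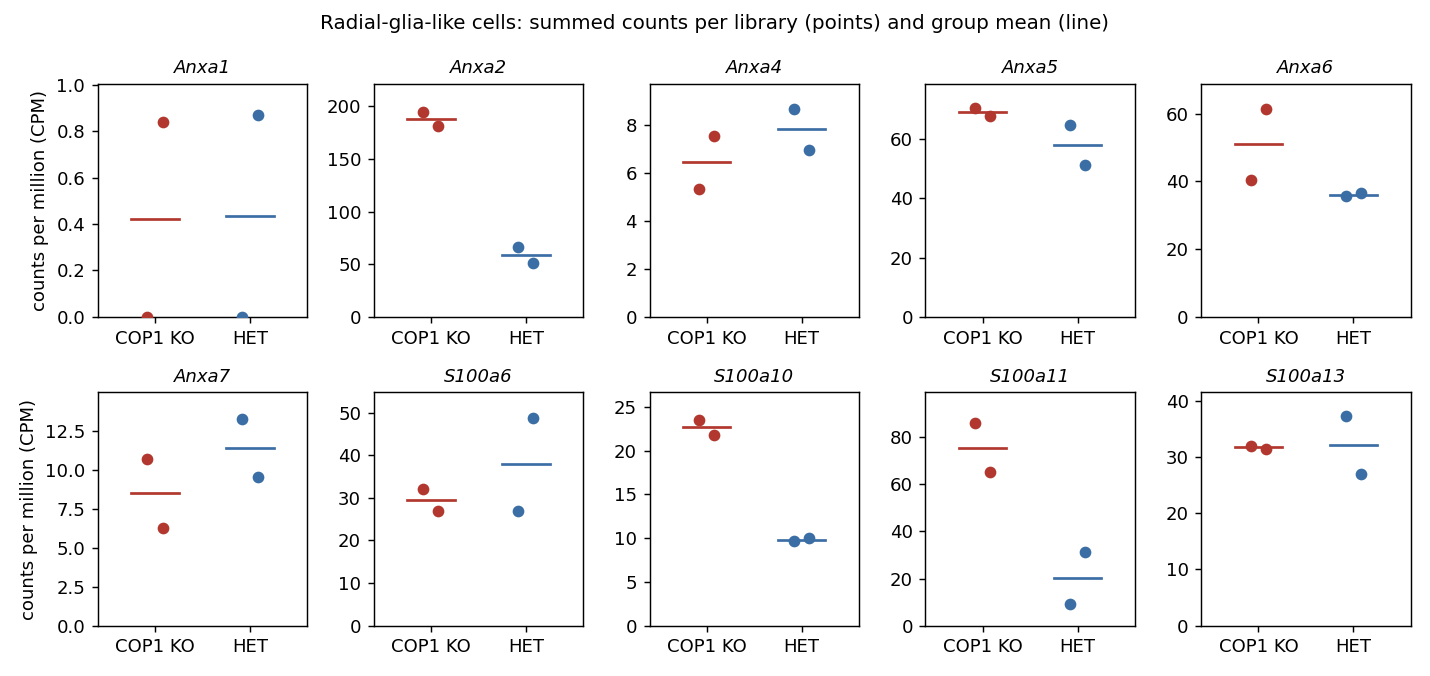
CPM of each gene in the summed radial-glia-like cells of each library (points) with the mean of each genotype (line), COP1 KO left and HET right, on a separate axis for each gene. The COP1 KO points of Anxa2, S100a10 and S100a11 all lie above their HET points.

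The remaining genes tested in these cells did not pass. Anxa6, the largest annexin, had 40.4 and 61.3 CPM in COP1 KO, against 35.7 and 36.5 CPM in HET (log2 0.54, edgeR adjusted p = 0.235), and passed only without COP1 KO replicate 1. Anxa5 had 70.7 and 68.0 CPM in COP1 KO, against 64.8 and 51.3 CPM in HET (log2 0.31, edgeR adjusted p = 0.372). In both genes the groups did not overlap, but the gap was small beside the spread between libraries of a genotype. S100a6 had 32.0 and 26.9 CPM in COP1 KO, against 27.0 and 48.7 CPM in HET, and S100a13 had 32.0 and 31.5 CPM in COP1 KO, against 37.2 and 27.0 CPM in HET, so the genotypes overlapped. Anxa7 (log2 −0.37) and Anxa4 (log2 −0.22) overlapped as well. Anxa1 was counted only 2 times in each genotype and was not tested.

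The higher Anxa2 sum went with more cells that held a molecule. Each cell was thinned to 2000 counts so that depth was equal, which left out 2 of 387 cells of COP1 KO replicate 1 and no cell of the other libraries. Anxa2 was then found in 25.5% (exact 95% interval 21.2 to 30.1) and 23.2% (18.8 to 28.1) of COP1 KO cells, against 10.2% (6.95 to 14.3) and 8.70% (5.76 to 12.5) of HET cells. None of these intervals overlapped between genotypes. Without thinning the mean shares were 47.9% in COP1 KO and 22.1% in HET, where the median depth per cell was 5194 and 5828 counts in COP1 KO and 5790.5 and 6638 in HET.

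S100a11 was found in 11.4% and 10.1% of thinned COP1 KO cells, against 1.41% and 6.02% of HET cells, and the intervals of COP1 KO replicate 2 (7.11 to 13.9) and HET replicate 2 (3.61 to 9.35) overlapped. S100a10 was found in 4.68% and 3.57% of COP1 KO cells, against 3.17% and 0.334% of HET cells, and the interval of HET replicate 2 (0.00847 to 1.85) lay just below those of both COP1 KO libraries (2.79 to 7.29 and 1.86 to 6.16), while that of HET replicate 1 (1.46 to 5.93) overlapped them. As a measure of background, excitatory-neuron-like cells thinned in the same way held Anxa2 in 0.42% of COP1 KO and 0.21% of HET cells on average, and S100a11 in 0.29% and 0.40%, with a median depth of 5164 and 6168 counts in COP1 KO and 6091 and 6623.5 in HET. Anxa2 lay above this background in radial-glia-like cells of every library, and S100a11 in all but HET replicate 1, whose interval (0.385 to 3.57) reached it. S100a10 has no such background here, since excitatory-neuron-like cells held it in 8.89% of COP1 KO and 8.18% of HET cells. The intervals cover counting error only.

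**Figure D3:**
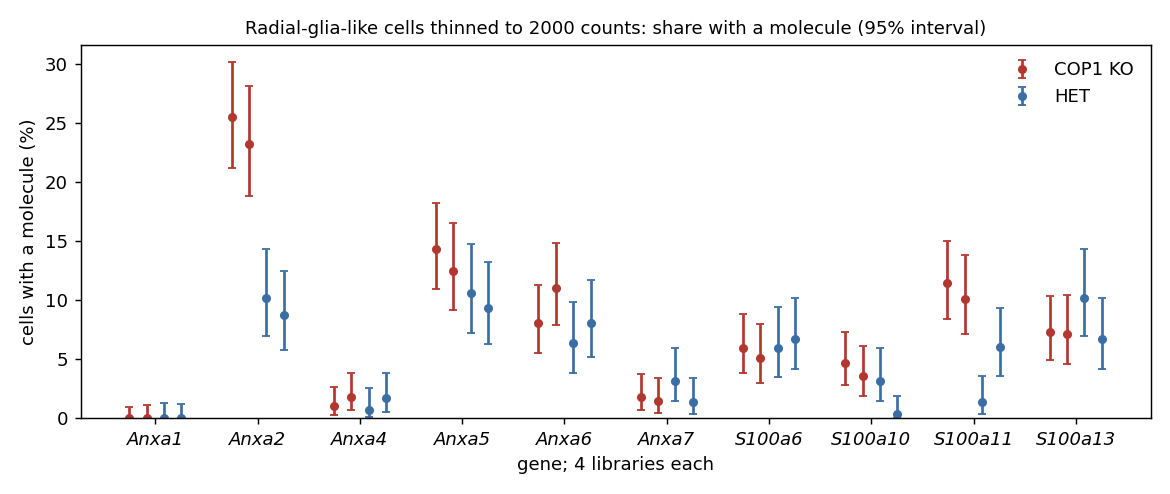
Share of radial-glia-like cells with at least 1 molecule of each gene after thinning to 2000 counts per cell, for COP1 KO replicates 1 and 2 (red, left) and HET replicates 1 and 2 (blue, right), with exact 95% binomial intervals. Anxa2 stands at 25.5% and 23.2% in COP1 KO, against 10.2% and 8.70% in HET, while the intervals of Anxa5, Anxa6, S100a6 and S100a13 overlap.

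The molecules were not spread evenly over cells. In COP1 KO replicates 1 and 2, the 5% of radial-glia-like cells with the most S100a11 held 63.4% and 60.6% of its molecules, with up to 17 and 14 in a cell. In HET the share was 88.9% and 68.1%, of only 18 and 72 molecules, and since such a share grows as the total falls the genotypes are not compared by it.

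The class consists of 3 clusters: 737 cells led by Aldoc and Mt3, 487 dividing cells led by Hes1 and Prc1, and 82 cells led by Thrsp, Tesc and Gfap. Anxa2 was higher in COP1 KO in the non-dividing cells, with 178 and 152 CPM in COP1 KO, against 60.1 and 67.2 CPM in HET (log2 1.43, edgeR adjusted p = 0.000256), and in the dividing cells, with 207 and 198 CPM in COP1 KO, against 77.7 and 38.6 CPM in HET (log2 1.84, edgeR adjusted p = 9.16e-05). S100a11 passed in both clusters as well (edgeR adjusted p = 0.0136 and 0.00119), with 120 and 95.2 CPM in non-dividing COP1 KO cells, against 11.5 and 48.6 CPM in HET. S100a10 passed in neither alone. In the cluster led by Thrsp, too small to test, 46 and 43 Anxa2 molecules were counted in COP1 KO, against 0 and 2 in HET, over 32 and 23 cells and 14 and 13 cells.

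Markers of other cell types were counted beside these results. The 8 fibroblast markers summed to 37.3 and 59.2 CPM in COP1 KO radial-glia-like cells, against 28.04 and 30.4 CPM in HET, with 5 of 8 higher in COP1 KO. The 10 endothelial markers summed to 51.1 and 48.7 CPM in COP1 KO, against 36.2 and 38.3 CPM in HET, with 8 of 10 higher in COP1 KO. The 9 mural markers summed to 60.0 and 79.7 CPM in COP1 KO, against 45.4 and 61.7 CPM in HET, with 4 of 9 higher in COP1 KO. The 12 microglia markers summed to 16.4 and 20.1 CPM in COP1 KO, against 15.8 and 24.3 CPM in HET, with 5 of 12 higher in COP1 KO. No marker of these 4 lists was at 0 in every library, and Dcn and Itm2a gave most of the fibroblast and endothelial sums. Rgs5, a mural marker, had 15.6 and 26.4 CPM in COP1 KO, against 4.08 and 4.78 CPM in HET. The 9 intermediate progenitor markers summed to 1187 and 1206 CPM in COP1 KO, against 1437 and 1506 CPM in HET, with 2 of 9 higher in COP1 KO, and Neurog2 among them had 205 and 214 CPM in COP1 KO, against 368 and 360 CPM in HET. The 8 oligodendrocyte precursor markers summed to 232 and 259 CPM in COP1 KO, against 191 and 179 CPM in HET, with Gpr17 at 0. The 15 radial glia markers summed to 19029 and 17854 CPM in COP1 KO, against 20733 and 21564 CPM in HET, with 7 of 15 higher in COP1 KO. Of 11 genes that respond to dissociation and stress 9 were tested here and none passed (median log2 0.06). The 6 erythroid markers summed to 2385 and 2078 CPM in COP1 KO, against 178 and 153 CPM in HET. The 27 erythroid-like cells held no molecule of Anxa2 or S100a11, and 0 and 0 molecules of S100a10 in COP1 KO, against 9 and 1 in HET. The part of these other types in the differences between genotypes was not tested.

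In the 618 radial-glia-like cells with no molecule of 40 such markers (hemoglobin aside), Anxa2 had 188 and 136 CPM in COP1 KO, against 54.7 and 33.8 CPM in HET (log2 1.93, edgeR adjusted p = 0.000187). A cell with no counted molecule of these markers may still hold such RNA. S100a11 there had 44.0 and 16.9 CPM in COP1 KO, against 10.5 and 20.5 CPM in HET, the genotypes overlapped, and it did not pass (log2 1.08, edgeR adjusted p = 0.277). S100a10 had 19 and 7 molecules in COP1 KO, against 9 and 6 in HET, and fell under the filter. In the 688 cells that held such a molecule S100a11 had 124 and 90.8 CPM in COP1 KO, against 8.16 and 37.4 CPM in HET. There S100a10 had 28.8 and 29.0 CPM in COP1 KO, against 9.07 and 11.5 CPM in HET, and Anxa2 had 200 and 205 CPM, against 76.2 and 61.1 CPM. The 688 cells were not tested as a group.

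Of the other annexins, 1 of 6 could be tested in radial-glia-like cells and was higher in COP1 KO. It passed the filter only through the COP1 KO libraries, so its direction is no separate support. This was Anxa3, with 15 and 24 molecules in COP1 KO, against 0 and 1 in HET (edgeR adjusted p = 0.00741), which DESeq2 did not call (adjusted p = 0.0713). Of 13 other S100 genes 3 were tested, S100a1, S100a16 and S100b, and none passed (log2 0.12 to 0.31). Of 22 partners of annexins and S100 proteins 10 were tested and 1 rose, Plat, the tissue plasminogen activator that the Anxa2 and S100a10 complex binds. Plat had 54.2 and 60.4 CPM in COP1 KO, against 13.8 and 27.4 CPM in HET (log2 1.498, SE 0.251, edgeR adjusted p = 0.00952). The others lay between log2 −0.29 and 0.20, among them Ahnak (log2 0.02), a large scaffold that binds the complex, and Cacybp (log2 −0.14), which binds S100a6. The median of the partners tested was 0.03. Without HET replicate 1 both Anxa3 (edgeR adjusted p = 0.152) and Plat (0.0848) missed the threshold.

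In the sums of whole libraries none of the 10 genes passed, while edgeR called 0.0118% of 16977 genes. At an unadjusted p under 0.05 there were 2, Anxa2 and S100a13. Anxa2 had 43.1 and 42.2 CPM in COP1 KO, against 22.6 and 26.9 CPM in HET (log2 0.81, SE 0.101, edgeR adjusted p = 0.117). DESeq2 called it (adjusted p = 6.41e-06), where it also called far more genes over all, 130 higher and 45 lower in COP1 KO of 16977. Over 9 alternatives the log2 difference of Anxa2 ran from 0.69 to 0.94. Over all genes, 10.5% had an unadjusted p under 0.05 in the edgeR test of whole libraries. In such sums more cells of a type and more RNA per cell cannot be told apart. Radial-glia-like cells held 38.3% and 36.6% of all Anxa2 molecules in the COP1 KO libraries, against 21.3% and 16.4% in the HET libraries, and 30.6% and 25.8% of S100a11, against 4.5% and 12.9%.

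The difference between genotypes in radial-glia-like cells was then set against that in excitatory-neuron-like cells in 1 model with a class-by-genotype term, each library being a block. Of 9 genes tested 2 passed, both larger in radial-glia-like cells, where edgeR called 2.34% of 14723 genes in either direction and 1.56% in this one. For S100a11 the log2 difference was 2.42 larger in radial-glia-like cells (SE 0.353, edgeR adjusted p = 1.47e-05), and excitatory-neuron-like cells had 2.14 and 2.20 CPM in COP1 KO, against 2.77 and 3.34 CPM in HET. For S100a10 it was 1.05 larger (SE 0.258, edgeR adjusted p = 0.0152), and excitatory-neuron-like cells had 79.1 and 99.7 CPM in COP1 KO, against 73.7 and 84.5 CPM in HET. The call for S100a10 was lost without HET replicate 2, without COP1 KO replicate 1 and with DESeq2 (adjusted p = 0.163, 0.271 and 0.484).

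Anxa2 did not pass this test. Its log2 difference was 1.54 in excitatory-neuron-like cells (SE 0.29, edgeR adjusted p = 0.307), and the difference between the classes was 0.19 with an SE of 0.409, which leaves room for a difference in either direction. Its levels in excitatory-neuron-like cells were low, at 2.45 and 2.51 CPM in COP1 KO, against 0.728 and 1.01 CPM in HET. In cortical-interneuron-like cells Anxa2 had 17.3 and 8.35 CPM in COP1 KO, against 2.23 and 2.94 CPM in HET (log2 2.30, edgeR adjusted p = 0.404). In ganglionic-eminence-progenitor-like cells it had 27.2 and 13.7 CPM in COP1 KO, against 4.44 and 8.27 CPM in HET (log2 1.63, edgeR adjusted p = 0.359). Neither passed. In each of these 3 classes both COP1 KO libraries lay above both HET libraries. This held for 17.2% of all genes tested in excitatory-neuron-like, 16% in cortical-interneuron-like and 15.6% in ganglionic-eminence-progenitor-like cells. The classes come from the same 4 libraries. In all 3 the HET libraries alone would not have carried Anxa2 past the filter on low counts. It was tested there through COP1 KO, so its direction is no separate support.

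**Figure D4:**
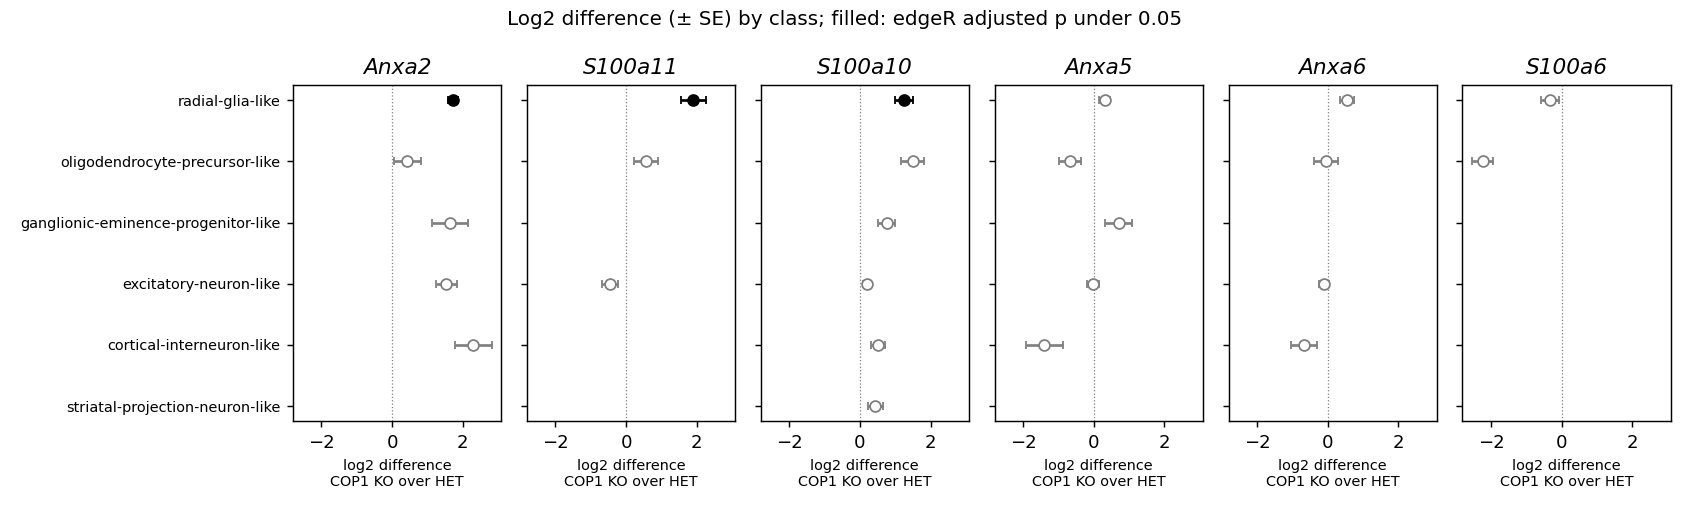
Log2 difference of COP1 KO over HET with its SE for 6 of the genes in each class where they were tested, filled where the edgeR adjusted p was under 0.05. The filled points are Anxa2 (1.72), S100a11 (1.90) and S100a10 (1.25) in radial-glia-like cells, and S100a6 in oligodendrocyte-precursor-like cells lies farthest to the left at −2.24.

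Outside radial-glia-like cells no gene of the 10 passed in any class at the threshold used, and edgeR called few genes there: 0% of those tested in excitatory-neuron-like, 0.00915% in cortical-interneuron-like, 0.00971% in striatal-projection-neuron-like, 0.0122% in oligodendrocyte-precursor-like, 0.0134% in Cajal-Retzius-like, 0.154% in ganglionic-eminence-progenitor-like and 0.387% in intermediate-progenitor-like cells. At an unadjusted p under 0.05 there were 3 of the genes in cortical-interneuron-like, 2 in ganglionic-eminence-progenitor-like, 2 in oligodendrocyte-precursor-like and 1 in excitatory-neuron-like cells. The share of all genes at that threshold was 6.92% in cortical-interneuron-like, 7.83% in ganglionic-eminence-progenitor-like, 9.46% in oligodendrocyte-precursor-like and 9.12% in excitatory-neuron-like cells. Anxa2, Anxa5, Anxa6 and Anxa7 in cortical-interneuron-like cells passed the filter on low counts only through the genotype where they were higher. The same held for Anxa2 and Anxa5 in ganglionic-eminence-progenitor-like and for Anxa2 in excitatory-neuron-like cells. The numbers of genes in these 3 classes are therefore no separate support for a difference. Of the 10 genes, 7 were tested in excitatory-neuron-like and 7 in oligodendrocyte-precursor-like cells, 5 in cortical-interneuron-like, 3 in ganglionic-eminence-progenitor-like, 1 each in striatal-projection-neuron-like and Cajal-Retzius-like, and none in intermediate-progenitor-like cells. Fibroblast-like, endothelial-like, mural-like, microglia-like and erythroid-like cells were too few in some library to test. There Anxa2 had 1237 and 1289 CPM in COP1 KO fibroblast-like cells, against 1155 and 1258 CPM in HET, and 636 and 551 CPM in COP1 KO endothelial-like cells, against 540 and 734 CPM in HET, so the genotypes overlapped in both. In mural-like cells it had 429 and 528 CPM in COP1 KO, against 743 and 404 CPM in HET, which overlapped as well. In microglia-like cells it had 102 and 122 CPM in COP1 KO, against 206 and 186 CPM in HET, which is 18 and 20 molecules against 27 and 24, with COP1 KO below HET and no overlap.

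Oligodendrocyte-precursor-like cells, the glial progenitors marked by Olig1, Olig2 and Pdgfra, held the difference closest to the threshold. S100a6 had 20.9 and 20.1 CPM in COP1 KO, against 89.7 and 99.4 CPM in HET, a log2 difference of −2.24 (SE 0.301, edgeR adjusted p = 0.0543). These are 17 and 21 molecules in 116 and 140 cells of COP1 KO, against 26 and 31 molecules in 35 and 37 cells of HET. The groups lay far apart, and 8 of 13 alternatives placed the adjusted p under 0.05, over a range from 5.76e-06 to 0.422. S100a10 had 123 and 166 CPM in COP1 KO, against 62.1 and 38.5 CPM in HET (log2 1.49, edgeR adjusted p = 0.209), and did not pass.

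Of the markers of these precursors themselves, several were lower in COP1 KO. Pdgfra had 103 and 160 CPM in COP1 KO, against 280 and 260 CPM in HET. Gpr17 had 9.83 and 3.83 CPM in COP1 KO, against 65.6 and 54.5 CPM in HET, and Lhfpl3 had 71.2 and 127 CPM in COP1 KO, against 190 and 186 CPM in HET. No molecule of Pdgfra or Sox10 was counted in 166 of the 328 cells. Olig1 and Olig2 overlapped between genotypes, and the part of the class's makeup in the S100a6 and S100a10 differences was not tested.

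This cluster also held RNA of other types. Its leading gene was Ttr, a choroid plexus gene, and 7 of its 328 cells gave 1% or more of their counts to Ttr. The 8 fibroblast markers summed to 13.5 and 25.8 CPM in COP1 KO, against 145 and 115 CPM in HET, and none was higher in COP1 KO. Of the 8, Foxc1 was at 0 in every library. The 5 choroid plexus markers summed to 39.3 and 10706 CPM in COP1 KO, against 62843 and 103 CPM in HET, so a high and a low library occurred in each genotype. Of the 11 dissociation and stress genes 1 was higher in COP1 KO, and their sums were 2420 and 2758 CPM in COP1 KO, against 3545 and 3325 CPM in HET. The part of these genes in the S100a6 difference was not tested. Without the 28 cells that held a fibroblast marker S100a6 had 17.7 and 21.002 CPM in COP1 KO, against 101 and 104 CPM in HET. Among cells with a molecule of Pdgfra or Sox10 it had 8.92 and 12.6 CPM in COP1 KO, against 104 and 122 CPM in HET. These are 3 and 7 molecules in 49 and 72 cells of COP1 KO, against 15 and 19 molecules in 18 and 23 cells of HET. Without the cells high in Ttr S100a6 had 20.9 and 20.8 CPM in COP1 KO, against 104 and 99.4 CPM in HET. Among the cells without Pdgfra and Sox10 it had 29.3 and 28.6 CPM in COP1 KO, against 75.8 and 76.7 CPM in HET, a smaller gap than in those with either. The genotypes did not overlap in any of the 4 subsets, which were chosen after seeing the data and were not tested.

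**Figure D5:**
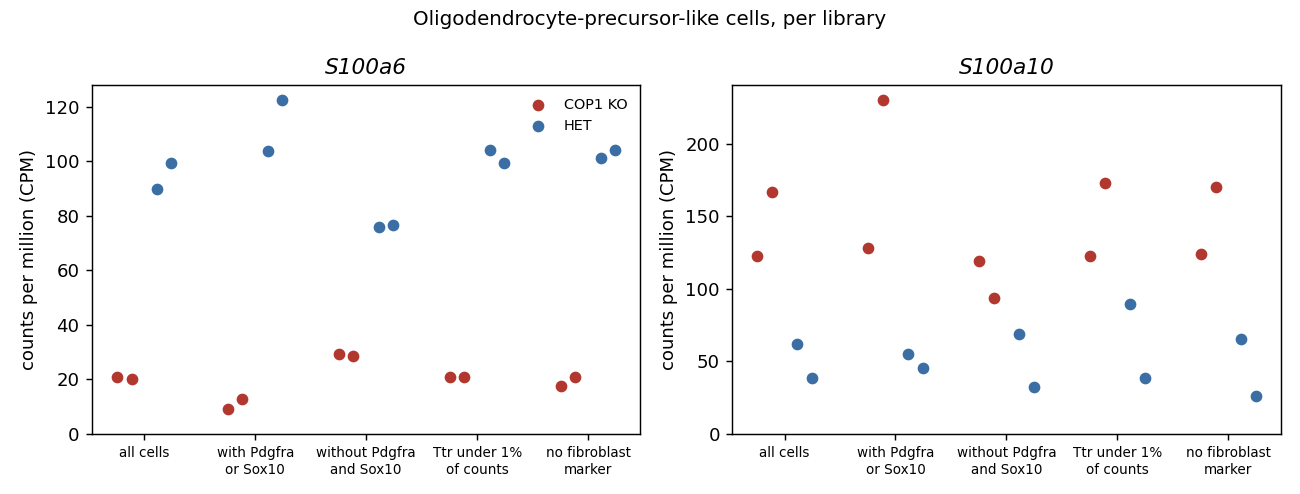
CPM of S100a6 and S100a10 per library in oligodendrocyte-precursor-like cells and in 4 subsets of them, COP1 KO in red and left, HET in blue and right. S100a6 lies between 8.92 and 29.3 CPM in COP1 KO and between 75.8 and 122 CPM in HET in every subset.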

How the data were processed

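The authors deposited a table for each library that holds raw counts, as whole numbers without normalization, with genes in lines and cell barcodes in columns. Papain-dissociated cells went through 10x Chromium 3′ v2 chemistry, per the labels' protocols; GSNAP and GRCm38 (mm10) are named, per the submitters' processing notes. For the counter and annotation, the sources used here give no name.

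Of 36528 gene rows, 40 identical copies (1.33% of counts) were removed; 3065 rows carry only a number (1.69% of counts). Of 19237 barcodes, 222 with under 500 genes, 1 with over 10% mitochondrial counts and 232 with a Scrublet score above 0.25 were removed, because its automatic threshold marked only 12. Cells were clustered with scanpy 1.11.5 and leidenalg 0.10.2 (2000 variable genes, 30 components, 15 neighbours, resolution 1.0) without 30 annexin and S100 genes. Clusters were named from markers by thresholds set after seeing the data (score 0.5, margin 0.3, 3 markers in 10% of cells, 0.3 of the best cluster's score). Clusters 1, 12, 21 and 25 were kept out of the named classes. Clusters 1 and 21 met these thresholds, but their leading genes held more markers of another class than of their own. Cluster 1, the largest of the 4, held 8.70% and 7.17% of COP1 KO cells, against 8.34% and 7.40% of HET cells.

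Sums of counts by library and class (20 or more cells in each library) were compared in edgeR 4.0.16 under R 4.3.3 by its quasi-likelihood test after TMM scaling and filterByExpr, with Benjamini-Hochberg adjustment over all genes tested, checked on simulated counts; DESeq2 1.42.0 was an alternative. The SE is the absolute log2 difference over the square root of F. The labels give no litter, batch or replicate number. All 10 genes are named, with list genes past the threshold and the 3 most alike genes for each. The genes, lists and tests were chosen with earlier results of these data known.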

Additional observations from a re-analysis of the deposited data

Results flagged for a closer look

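The COP1 KO against HET difference was larger in radial-glia-like than in excitatory-neuron-like cells, by the class-by-genotype term, for S100a11 (log2 2.42), S100a10 (1.05), Plat (1.44, SE 0.24, edgeR adjusted p = 0.000143) and Anxa3 (4.86, SE 1.34, edgeR adjusted p = 0.0409). With DESeq2 the terms of S100a10, Plat (adjusted p = 0.127) and Anxa3 (0.679) did not pass. Anxa3 rests on 1 molecule in the HET radial-glia-like cells, and in that class it passed the filter only through COP1 KO.

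In some pairs of classes both COP1 KO libraries lay above both HET libraries in one class and below both in the other; these differences were not tested. Of all genes tested in both classes of a pair, from 4.19% to 8.92% did the same, and some gaps are narrow, such as 68.0 CPM in COP1 KO, against 64.8 CPM in HET, for Anxa5 in radial-glia-like cells. For Anxa5 the log2 difference was larger by 2.11 in ganglionic-eminence-progenitor-like than in cortical-interneuron-like cells, by 1.38 than in oligodendrocyte-precursor-like cells, and in radial-glia-like cells by 1.71 and 0.99 than in the same classes. For Anxa6 it was larger by 1.21 in radial-glia-like than in cortical-interneuron-like cells, and for S100a11 by 1.03 in oligodendrocyte-precursor-like than in excitatory-neuron-like cells. In ganglionic-eminence-progenitor-like cells the HET libraries alone would not have carried Anxa5 past the filter on low counts. In cortical-interneuron-like cells the COP1 KO libraries alone would not have carried Anxa5 or Anxa6 past it. The directions of these genes in those classes are therefore no separate support.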

How the results depend on the processing

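No paired analysis was possible because the labels give the libraries no replicate numbers. Over all alternatives, single-gene values kept their direction and side of the threshold in 403 cases, passed newly in 15, no longer passed in 20 and changed sign in 20, none of them called; causes were not tested. In whole libraries DESeq2 called 1 gene of the 10 (Anxa2) in place of 0, where it called 130 genes higher and 45 lower of 16977. Fits that left out a library had 1 library in a genotype, and their calls in whole libraries are not counted. In radial-glia-like cells, in place of 3, DESeq2, adjustment over all genes and classes together, and cells with no molecule of another type each left 1 (Anxa2), and leaving out a library gave 1 (without HET replicate 1) to 4 (without COP1 KO replicate 1, which added Anxa6). In other classes, in place of 0, library totals, DESeq2 size factors, DESeq2, joint adjustment, resolution 0.5 and clustering with annexin and S100 genes each gave 1 (S100a6 in oligodendrocyte-precursor-like cells). In that class DESeq2 called 4 genes higher and 14 lower of 8174. No removal of doublets gave 2, with 12 genes higher and 34 lower of 8154 in the same class. No filter gave 5, while calls over all genes ran from 0 of 17708 in intermediate-progenitor-like cells to 114 higher and 198 lower of 17796 in oligodendrocyte-precursor-like cells. Fits that left out a library are not counted for these classes. The class-by-genotype test, with 2 calls, gave 1 with DESeq2 and 1 without doublet removal, and 1 to 2 when a library was left out.

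Differences in the share of radial-glia-like cells with a molecule, thinned to 2000 counts, were 14.9 percentage points for Anxa2, 2.37 for S100a10 and 7.06 for S100a11; without thinning they were 25.8, 5.79 and 10.8, and at 3000 counts Anxa2 had 20.9. Signs changed for Anxa6 in oligodendrocyte-precursor-like cells without a filter (0.044), for S100a13 in radial-glia-like cells with library totals (−0.0053), without cells holding another type's markers (−0.12) and in non-dividing cells (−0.28), for S100a6 in dividing cells (0.24) and for the Anxa4 class-by-genotype term without doublet removal (−0.075). Leaving out a library gave log2 ranges of −0.012 to 1.11 (Anxa2), −0.32 to 0.28 (Anxa6) and −0.44 to 0.065 (S100a13) in oligodendrocyte-precursor-like cells, −0.18 to 0.28 (S100a13) and −0.68 to 0.17 (S100a6) in radial-glia-like cells, and −0.42 to 0.12 (Anxa4) and −0.10 to 0.20 (Anxa5) in whole libraries. The class-by-genotype terms ranged from −0.23 to 0.61 (Anxa2), −0.61 to 0.67 (Anxa4), −0.73 to 0.15 (Anxa7) and −2.66 to 0.21 (S100a6). Subsets by cluster or marker were chosen after seeing the data. Classes with few cells limit depth: 3 molecules is the least that could be told from 0.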

Other observations

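S100a10 in the cluster led by Hs3st4, Nxph3 and Tle4 had 88.0 and 99.4 CPM in COP1 KO, against 108 and 156 CPM in HET. This cluster was not tested. Among striatal-projection-neuron-like cells S100a10 had 39.5 and 43.7 CPM in COP1 KO, against 26.3 and 36.4 CPM in HET (log2 0.44, edgeR adjusted p = 0.802).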
